A study of Mus musculus with 4 samples.

Results

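The genes described here are 10 feedback inhibitors of growth factor and stress signalling: the MAP kinase phosphatase genes Dusp1, Dusp4, Dusp5, Dusp6, Dusp8, Dusp10, Dusp14 and Dusp16, and the Sprouty genes Spry2 and Spry4. They were chosen by name, and all of their probe sets in the array annotation were read, 18 probe sets for 10 of the 18193 genes on the array. Male C57Bl/6 mice, wild type (WT) or labelled Tet2KO, for a knockout of a gene whose product oxidises methylcytosine in DNA, were given sham surgery or 60 min of renal ischemia and 24 h of reperfusion (IR). Each of the 4 groups was measured on 1 Affymetrix array with kidney RNA pooled from 3 mice, so no spread between mice exists and no difference below has a replicate check. All 4 groups share sex and strain; the age of the mice and the cells in which Tet2 was deleted are not given in the sources used here.

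MAP kinases of the ERK, JNK and p38 families are switched on by phosphorylation of a threonine and a neighbouring tyrosine, and dual-specificity phosphatases switch them off by removing both phosphates. Sprouty proteins act further up, between receptor tyrosine kinases and RAS or RAF. Many of these inhibitors are transcribed in response to the pathway they restrain, so their RNA is often read as a trace of recent signalling. In the kidney, ischemia and reperfusion are known to activate all of these kinase families in tubule cells.

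Promoter sequences of RefSeq (GRCm38.p6) were found for 8 of the 10 genes. The 250 bases before the start were searched on both strands for AP-1 (TGANTCA), the cyclic AMP response element CRE (TGACGTCA) and its core (TGACG, which lies inside every full CRE), ETS (CCGGAAG), EGR (GCGNGGGCG) and the serum response element in its CArG box form. Below are the stretches of the genes whose injury responses differed most between the genotypes, Dusp1 and Dusp5, and that of Dusp8, which carries the same full motif as Dusp1. Each is given 5′ to 3′ on the gene's own strand, and capitals mark the matches: CRE and CRE core in Dusp1, CRE in Dusp8, and in Dusp5 a pair of abutting serum response elements followed by a CRE core on the other strand.
Dusp1, chr17:26508583-26508688, minus strand: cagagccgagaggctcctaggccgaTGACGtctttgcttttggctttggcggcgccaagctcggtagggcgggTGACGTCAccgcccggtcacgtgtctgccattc
Dusp5, chr19:53529038-53529119, plus strand: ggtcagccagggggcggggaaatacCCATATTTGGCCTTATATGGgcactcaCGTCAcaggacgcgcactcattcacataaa
Dusp8, chr7:142095315-142095416, minus strand: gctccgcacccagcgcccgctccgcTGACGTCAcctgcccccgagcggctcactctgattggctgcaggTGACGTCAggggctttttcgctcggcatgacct

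The matches begin 191 and 143 bases before the start in Dusp1, 82, 72 and 55 bases in Dusp5 and 107 and 63 bases in Dusp8. Of 32851 promoters in the table, 1.55% held 1 or more CRE and 0.030% held 2 or more, as Dusp8 did. A serum response element was found in 1.47% of promoters, and 2 or more in 0.018%, which is 6 promoters. Dusp16 held a CRE core and an EGR motif, present in 17.8% and 4.70% of promoters. Dusp6, Dusp10, Dusp14 and Spry2 had 0 matches to any of these motifs. A match describes the letters of this window and is no evidence of binding.

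Signals are deposited on the log2 scale, where a step of 1 is a 2-fold difference. Signals below a floor of 5.72, the 40th percentile of all signals, were set to it, a gene was read from its brightest probe set, and a difference of 2-fold or more was counted. The SD of log2 ratios among probe sets of one gene serves as a technical yardstick: it was 0.24 for IR over sham in WT, 0.39 in the Tet2KO-labelled pair, 0.19 between the sham arrays and 0.32 between the IR arrays. Across the 4 arrays 59.7% to 60.4% of probe sets were at or over the floor, and the arrays correlated with r from 0.963 to 0.993. The Tet2 probe sets had log2 ratios of -0.09 and 0.41 between the Tet2KO-labelled and WT sham arrays and of -0.41 and -0.70 between the IR arrays. Because the place of these probes relative to the deletion is not known, they check nothing, and the groups are named by their label. In every array 8 of 8 proximal tubule and 5 of 5 loop and distal tubule markers were over the floor. Of other kidney lists, the collecting duct marker Slc4a1 was below it in Tet2KO-labelled IR and the podocyte marker Wt1 in WT IR.

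Of the 18 probe sets, 11 were over the floor in all 4 arrays, 3 in some and 4 in none. The probe sets used for 9 of the 10 genes were over the floor in all 4 arrays, and Dusp10 passed it in the IR arrays only. Dusp1, Dusp4, Dusp5, Dusp6 and Dusp14 each rest on 1 probe set.

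**Figure D1:**
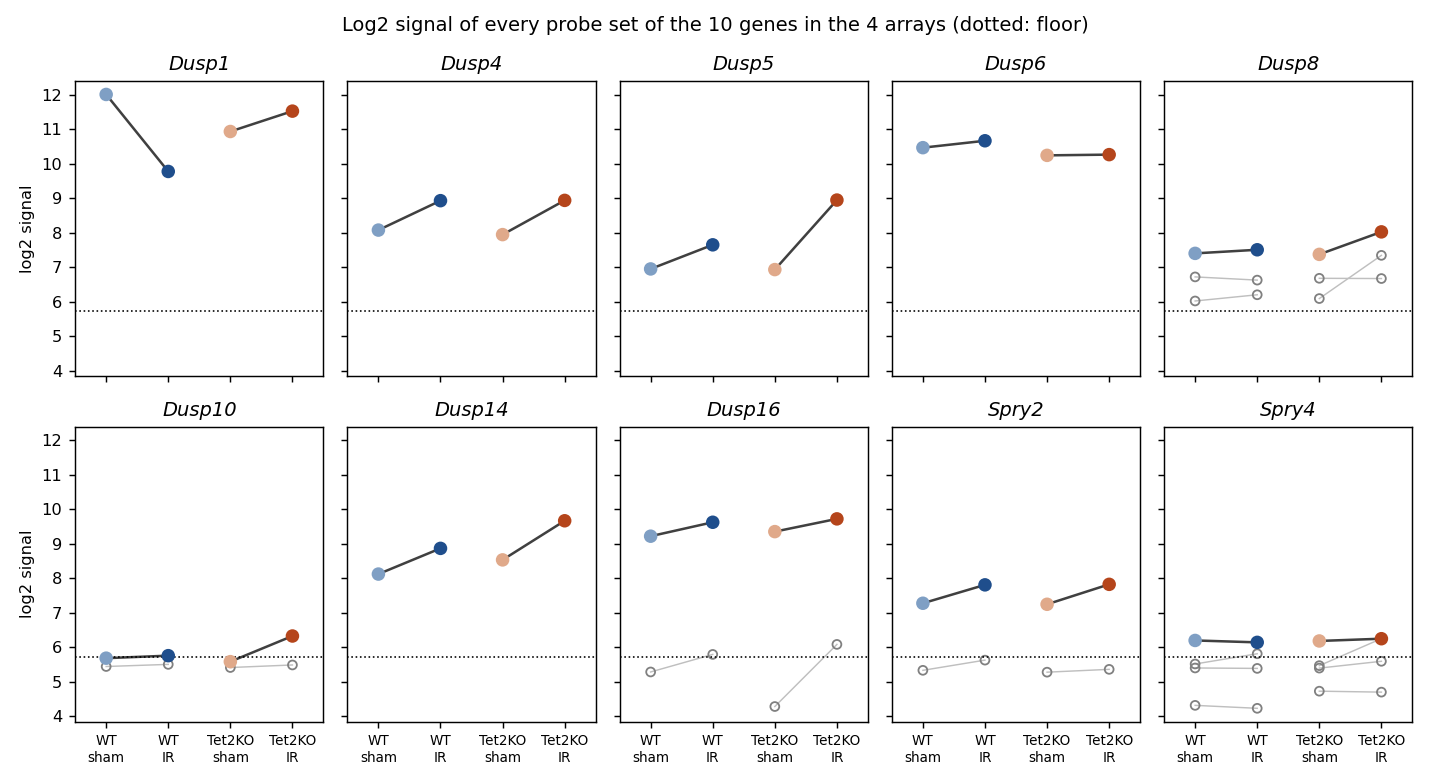
Log2 signal (vertical axis) of all 18 probe sets in the 4 arrays, 1 panel per gene. Filled points are the probe set used, open points the others, lines join sham to IR within a genotype label, and the dotted line is the floor of 5.72. Dusp1 goes from 12.01 to 9.78 in WT and from 10.94 to 11.53 in the Tet2KO-labelled pair, while Dusp5 reaches 8.95 in the Tet2KO-labelled IR array.

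Dusp1, Dusp4 and Dusp5 are the inducible phosphatases of the nucleus, and Dusp1 and Dusp5 had the widest spans of the 10 genes, 2.23 and 2.02 on the log2 scale. Dusp1 (MKP-1) acts on p38, JNK and ERK and is an immediate early gene. It had log2 signals of 12.01 in WT sham, 9.78 in WT IR, 10.94 in Tet2KO-labelled sham and 11.53 in Tet2KO-labelled IR. The WT IR array was thus the lowest of the 4 and the WT sham array the highest. Dusp1 was 4.70-fold lower after IR in WT, a log2 ratio of -2.23, and 1.51-fold higher in the Tet2KO-labelled pair, a log2 ratio of 0.59. The direction in WT held against either sham array, with a log2 ratio of -1.16 when the Tet2KO-labelled sham array was the control. The direction in the Tet2KO-labelled pair did not, since against the WT sham array its ratio was -0.48.

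Dusp5, a phosphatase selective for ERK, had log2 signals of 6.95 in WT sham, 7.65 in WT IR, 6.93 in Tet2KO-labelled sham and 8.95 in Tet2KO-labelled IR. The sham arrays lay within 0.02 of each other, and both IR arrays were higher, that of the Tet2KO label most. The IR signal was 1.62-fold higher in WT and 4.05-fold higher in the Tet2KO-labelled pair. With the sham arrays exchanged these folds were 1.65 and 3.99.

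Dusp4 (MKP-2), a close relative of Dusp1, had log2 signals of 8.08, 8.93, 7.95 and 8.94 in WT sham, WT IR, Tet2KO-labelled sham and Tet2KO-labelled IR. Both IR arrays stood at nearly the same signal, 0.01 apart, and over both sham arrays. The folds of 1.81 in WT and 1.99 in the Tet2KO-labelled pair fell just short of 2-fold. Thus Dusp4 and Dusp1, which share substrates, had opposite log2 ratios in WT, 0.85 against -2.23.

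Dusp6 (MKP-3), which holds and dephosphorylates ERK in the cytoplasm, is a widely used reporter of ERK activity. Its log2 signals of 10.47, 10.67, 10.24 and 10.26, in the same array order, spanned only 0.42. Its IR signal was 1.15-fold higher in WT and 1.01-fold higher in the Tet2KO-labelled pair, each within 1 SD of the probe set yardstick. Among the members, the ERK phosphatase of the nucleus and that of the cytoplasm therefore had unlike values in the Tet2KO-labelled pair: 2.02 for Dusp5 and 0.02 for Dusp6 on the log2 scale.

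The phosphatases that prefer JNK and p38, Dusp8, Dusp10 and Dusp16, showed smaller differences. Dusp8 had log2 signals of 7.40 in WT sham, 7.51 in WT IR, 7.37 in Tet2KO-labelled sham and 8.02 in Tet2KO-labelled IR, so that only the last array stood apart. Its 3 probe sets disagreed in the Tet2KO-labelled pair. They gave log2 ratios of 0.65, 1.25 and -0.01, against 0.10, 0.18 and -0.09 in WT.

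Dusp10 (MKP-5) was at the edge of detection, with log2 signals of 5.68, 5.75, 5.58 and 6.32 in the order WT sham, WT IR, Tet2KO-labelled sham and Tet2KO-labelled IR. Both sham signals were below the floor, so the IR array was at least 1.52-fold higher in the Tet2KO-labelled pair and at least 1.02-fold higher in WT. The second probe set was below the floor in every array.

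Dusp16 (MKP-7) was read at 9.22, 9.62, 9.35 and 9.72 in that order. Both IR arrays were over both sham arrays, by 1.32-fold in WT and 1.29-fold in the Tet2KO-labelled pair. The second probe set, at 5.28, 5.79, 4.28 and 6.08, was over the floor only in the IR arrays.

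Dusp14 (MKP-6) is a small atypical phosphatase that consists of little more than the catalytic domain. It had log2 signals of 8.12 in WT sham, 8.87 in WT IR, 8.53 in Tet2KO-labelled sham and 9.67 in Tet2KO-labelled IR. The IR signal was 1.68-fold higher in WT and 2.20-fold higher in the Tet2KO-labelled pair. Unlike Dusp5, it already differed between the sham arrays, by a log2 ratio of 0.41, which is more than the yardstick of 0.19. With the sham arrays exchanged, the IR folds were 1.26 in WT and 2.92 in the Tet2KO-labelled arrays.

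Of the Sprouty genes, Spry2 had log2 signals of 7.27, 7.81, 7.24 and 7.82 in the order WT sham, WT IR, Tet2KO-labelled sham and Tet2KO-labelled IR. The sham arrays were alike and the IR arrays were alike, with folds of 1.45 in WT and 1.49 in the Tet2KO-labelled pair. Its second probe set was below the floor in every array. Spry4 had 6.20, 6.14, 6.18 and 6.25, a span of 0.11 close above the floor. Another Spry4 probe set, at 5.51, 5.81, 5.46 and 6.25, was over the floor in the IR arrays only, and the remaining 2 were below it throughout.

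After IR in WT, 0 of the 10 genes were higher and 1 was lower at 2-fold, beside 2.06% higher and 2.18% lower among the 13531 genes measured. At 1.5-fold, 3 were higher, Dusp4, Dusp5 and Dusp14, and Dusp1 was lower, against 5.98% and 6.29% of all genes. In the Tet2KO-labelled pair 2 were higher, Dusp5 and Dusp14, and 0 lower, against 6.06% and 6.89% of 13600 genes. At 1.5-fold 6 were higher, against 14.6%: Dusp1, Dusp4, Dusp5, Dusp8, Dusp10 and Dusp14. The median log2 ratio of the 10 genes was 0.30 in WT and 0.60 in the Tet2KO-labelled pair, beside medians of 0.02 and -0.02 over all measured genes. With the probe set rule limited to plain _at probe sets, Dusp14 has none and 1 gene is counted as higher in the Tet2KO-labelled pair.

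The pairs share no array. In both of them 8 of the 10 genes had a ratio over 0, all but Dusp1 and Spry4, compared with 33.6% of the 13323 genes measured in both. This counts signs only. In WT the log2 ratios of Dusp6, Dusp8 and Dusp10, 0.20, 0.10 and 0.03, were under the probe set yardstick. In the Tet2KO-labelled pair those of Dusp6 and Dusp16, 0.02 and 0.37, were under it. The absolute ratio was larger in the Tet2KO-labelled pair for 7 of the 10, close to the 68.6% of all genes for which this held.

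**Figure D2:**
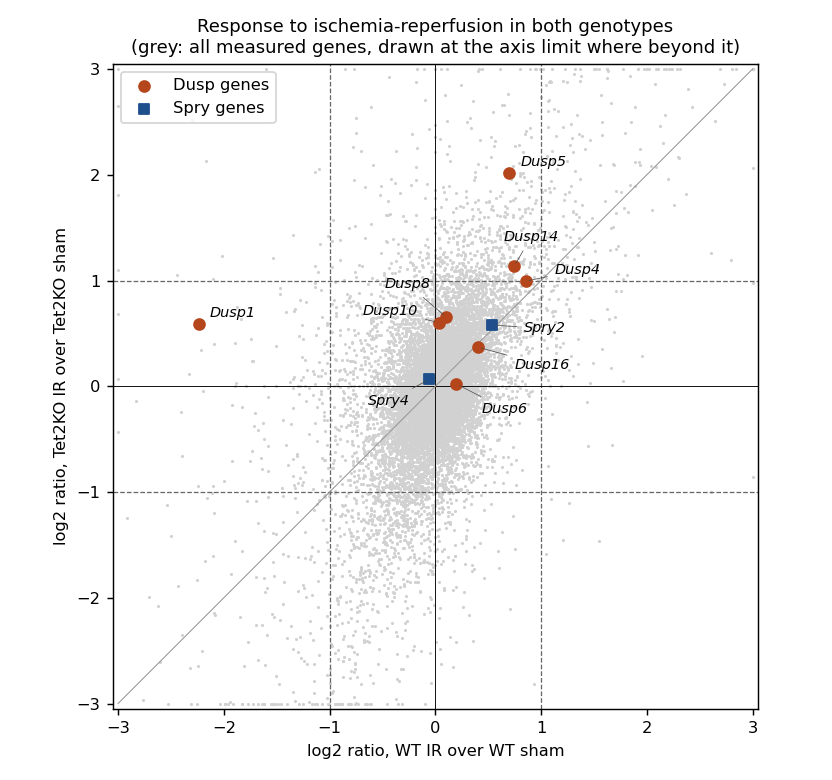
Log2 ratio of IR over sham in WT (horizontal) against the Tet2KO-labelled pair (vertical); grey points are all measured genes, dashed lines mark 2-fold and the diagonal marks equal ratios. Dusp1 lies alone at the left, at -2.23 and 0.59, Dusp5 lies over the diagonal at 0.70 and 2.02, and Dusp4 and Spry2 lie near it.

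Between the sham arrays, Dusp1 was 2.11-fold lower in the Tet2KO-labelled array, a log2 ratio of -1.07. It was the 1 member past 2-fold of 9 measured, where 0.186% of 13474 genes were higher and 0.846% lower. The other 8 had log2 ratios between -0.22 for Dusp6 and 0.41 for Dusp14.

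Between the IR arrays, Dusp1 was 3.36-fold and Dusp5 2.46-fold higher in the Tet2KO-labelled array, 2 of 10 genes, where 3.68% of 13492 genes were higher and 3.99% lower. Dusp14 was 1.74-fold higher and Dusp6 1.32-fold lower. Dusp4, Spry2, Dusp16 and Spry4 had log2 ratios of 0.01, 0.02, 0.10 and 0.11, all under the yardstick of 0.32. For Dusp1 the sign of the genotype difference was opposite after sham and after IR.

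The difference of the IR responses, Tet2KO-labelled minus WT, was 2.82 on the log2 scale for Dusp1 and 1.32 for Dusp5. The remaining 8 lay between -0.18 for Dusp6 and 0.57 for Dusp10. Over all 13808 genes, 4.75% had a difference of 2-fold or more upward and 4.77% downward. A ratio 2-fold or more lower in WT together with 1.5-fold or more higher in the Tet2KO-labelled pair, the combination Dusp1 had, was found for 34 genes, or 0.255% of those measured in both pairs; the rule for this count was set after the values of Dusp1 were seen.

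**Figure D3:**
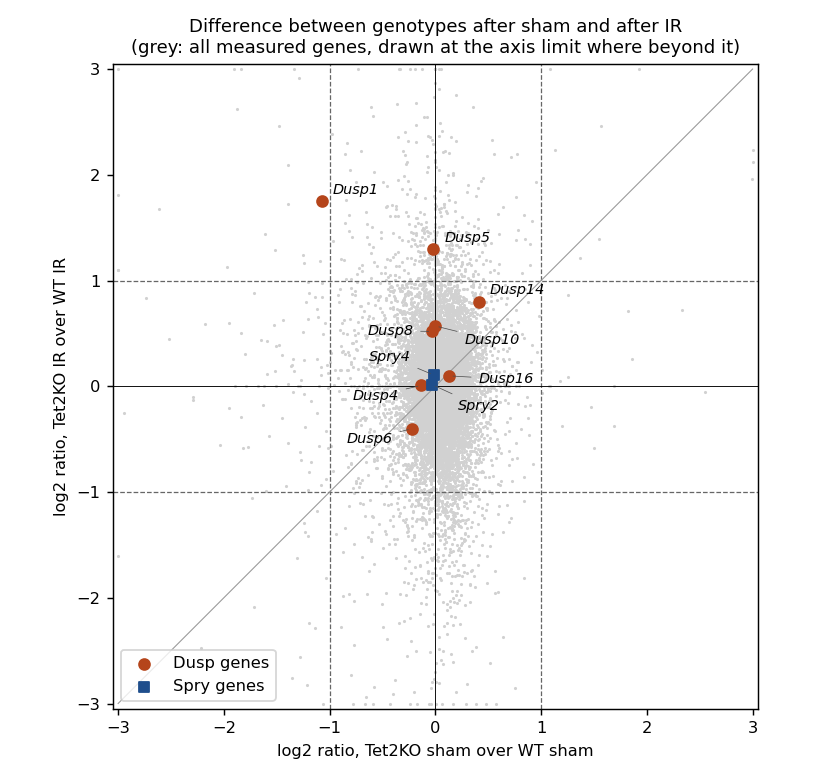
Log2 ratio of the Tet2KO-labelled over the WT array after sham (horizontal) and after IR (vertical); grey points are all measured genes and dashed lines mark 2-fold. Dusp1 is at -1.07 and 1.75 and Dusp5 at -0.02 and 1.30, and Dusp10, at the floor in both sham arrays, is drawn at 0 on the horizontal axis.

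Several marker lists of other cell types, chosen from a larger set after their sums were seen, shared some or all directions of the Dusp1 pattern. The summed linear signal of 5 adipose markers was 6974 in WT sham, 707 in WT IR, 1551 in Tet2KO-labelled sham and 9546 in Tet2KO-labelled IR, with 4 of the 5 below the floor in WT IR and in Tet2KO-labelled sham. In the same order, the 6 fibroblast and mural markers summed to 3386, 1548, 2521 and 5142, the 6 endothelial markers to 2349, 684, 2138 and 1702, and 4 podocyte markers to 1328, 405, 1362 and 2796. The fibroblast and mural markers were not uniform after IR in the Tet2KO-labelled pair. Acta2 and Tagln had log2 ratios of 2.39 and 2.05, Pdgfra and Dcn -1.12 and -1.20, and Pdgfrb and Col1a1 0.07 and 0.11. The WT IR array had the lowest sum of the adipose, fibroblast and mural, endothelial and podocyte lists, and it was the lowest for Dusp1. Against Tet2KO-labelled sham, the adipose ranking rested on Fabp4 alone, at 8.95 in WT IR and 10.39 in Tet2KO-labelled sham on the log2 scale. Col1a1 was highest in WT IR, at 6.91. The endothelial sum was lower after IR in the Tet2KO-labelled pair, where Dusp1 was higher. Its markers were split there, with log2 ratios of -1.37 for Plvap, -0.90 for Tek and -0.14 for Emcn. Pecam1, Kdr and Cdh5 had 0.07, 0.31 and 0.40. Podocyte markers differed little between the sham arrays, where Dusp1 was 2.11-fold apart. The podocyte sum followed Podxl and Synpo, with log2 ratios of -2.44 and -1.54 in WT and 1.06 and 1.21 in the Tet2KO-labelled pair. Nphs1 had only -0.31 in WT and -0.12 in the Tet2KO-labelled pair. Wt1, below the floor in WT IR, had 1.14 in the Tet2KO-labelled pair. The 6 urothelial markers summed to 1463, 769, 599 and 979, with the lowest sum in Tet2KO-labelled sham. The adipose, fibroblast and mural, and urothelial sums all went in the direction of Dusp1 in all 4 comparisons. Between the IR arrays, however, the urothelial markers Upk3a and Upk2 had log2 ratios of -0.17 and -0.03, opposite to Dusp1. Fewer cells of a type and less RNA per cell cannot be told apart in whole-kidney RNA, and the part of these cells in the Dusp1 signal was not tested.

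**Figure D4:**
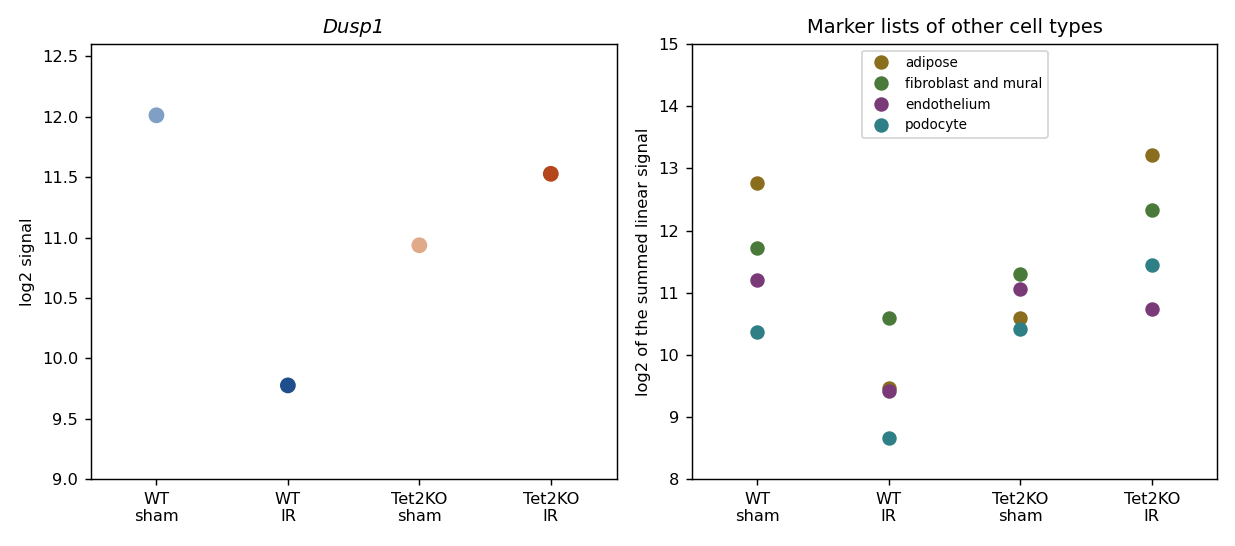
Left, log2 signal of Dusp1 in each array; right, log2 of the summed linear signal of the adipose, fibroblast and mural, endothelial and podocyte marker lists, 1 point per array. All 5 series have their lowest point in WT IR, while the WT sham array is the highest for Dusp1 and for the endothelial list only. The lists drawn were chosen after their sums were seen.

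Other marker lists, also chosen after their sums were seen, differed with the injury, as Dusp5 and Dusp14 did. The sum of 6 injured tubule markers, among them Havcr1 and Lcn2, was 1656 in WT sham, 22684 in WT IR, 599 in Tet2KO-labelled sham and 40867 in Tet2KO-labelled IR. In WT that sum followed Havcr1, Lcn2 and Krt20, with log2 ratios of 4.16, 5.67 and 6.27. Sox9, Krt18 and Vcam1 had 0.69, 0.61 and -0.10 there, while in the Tet2KO-labelled pair all 6 were past 2-fold. The injured tubule sum was lower in Tet2KO-labelled sham than in WT sham, where Dusp14 was higher. Between the sham arrays Havcr1 and Krt18 had -2.52 and -2.18, but Vcam1 and Sox9 had 0.77 and 0.13. Lcn2 and Krt20 were below the floor in Tet2KO-labelled sham. Neutrophil markers summed to 241, 388, 234 and 2143 over the 4 found on the array. In the Tet2KO-labelled pair that sum followed S100a8 and S100a9, with log2 ratios of at least 4.31 and of 3.85. Csf3r had 0.04 in WT and 0.30 in the Tet2KO-labelled pair, and Mpo was below the floor in every array. The injured tubule and neutrophil sums had the same order of arrays as Dusp5, an order that Dusp4, Dusp8, Dusp10 and Spry2 also had. For Dusp5 the sham arrays were 0.02 apart on the log2 scale, under the yardstick of 0.19, so their order carries little. The 8 proximal tubule markers summed to 86998, 66378, 87278 and 38322. The part of these shifts in the Dusp5 and Dusp14 signals was not tested.

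For each member whose signals spanned 2-fold or more, the 3 genes with the nearest profile, by Euclidean distance over the 4 centred log2 signals, were sought among 13807 others. For Dusp1 these were Acpp, an acid phosphatase gene, at a distance of 0.36, Dram1 at 0.52 and Myl9, a smooth muscle myosin light chain gene, at 0.53. Only 1 gene lay within 0.5 of Dusp1. For Dusp5 the nearest were Cenpt at 0.057, Lrrfip2 at 0.085 and Tmem43 at 0.10, with 138 genes within 0.5. Prrg4, Klhdc8a and Pgs1 came nearest to Dusp14, at 0.067, 0.087 and 0.10, with 572 genes within 0.5. The profile of Dusp1 was thus rare among these arrays and that of Dusp14 common, over 4 arrays only.

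Among 14 other dual-specificity phosphatase genes, 12 were measured in the WT pair, with 0 higher and 1 lower, and 13 in the Tet2KO-labelled pair, with 1 higher and 1 lower. The shares over all measured genes were 2.06% higher and 2.18% lower in WT, and 6.06% and 6.89% in the Tet2KO-labelled pair. Dusp15 was lower by 2.04-fold and 2.78-fold, with log2 ratios of -0.62 and -1.03 on another probe set. Dusp3, which acts on ERK and JNK, was 1.41-fold and 2.32-fold higher; its other 2 probe sets had log2 ratios from -0.07 to 0.43 in WT and from 1.61 to 2.24 in the Tet2KO-labelled pair. Dusp7, a cytoplasmic ERK phosphatase related to Dusp6, is named after its values were seen. It had log2 signals of 8.25 in WT sham, 7.52 in WT IR, 8.13 in Tet2KO-labelled sham and 9.02 in Tet2KO-labelled IR, and so, like Dusp1, was lowest in WT IR. Dusp2, another inducible nuclear phosphatase, stayed between 6.28 and 6.41.

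Of 5 other Sprouty and Spred genes, 3 were measured in the WT pair with 0 past 2-fold, and 4 in the Tet2KO-labelled pair with 1 higher. The shares over all measured genes were again 2.06% higher and 2.18% lower in WT, and 6.06% and 6.89% in the Tet2KO-labelled pair. The higher gene was Spred3, at least 2.44-fold higher, with signals below the floor in the other 3 arrays. Spry1, named after its values were seen, had 7.83, 7.48, 7.94 and 8.40 in the order used above, so that WT IR was its lowest array, whereas for Spry2 both IR arrays were higher than both sham arrays.

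The counts of kinases, ligands and receptors stand beside shares over all measured genes of 2.06% higher and 2.18% lower in WT. In the Tet2KO-labelled pair these shares were 6.06% and 6.89%. Among the kinases themselves, in WT 0 of 7 measured MAP kinase genes and 0 of 14 genes of MAP kinase kinases, RAF and RAS were past 2-fold. In the Tet2KO-labelled pair the p38 delta gene Mapk13 was 2.30-fold higher, Nras was 2.64-fold higher and Map2k6, an activator of p38, was 3.06-fold lower. Of 10 measured ligand genes, 0 were higher and 1 lower in WT, and 2 were higher and 3 lower in the Tet2KO-labelled pair. Egf was lower by 2.75-fold in WT and 24.6-fold in the Tet2KO-labelled pair, and Fgf9 by 1.22-fold and 2.10-fold, although the other Fgf9 probe set gave -0.25 and -0.49 on the log2 scale. Fgf1, outside the naming rule, was the remaining lower ligand. Pdgfa was higher by 1.33-fold and 3.20-fold. Hbegf, a ligand of the EGF receptor, was higher by 1.01-fold and 2.32-fold, though its other probe set gave 0.74 on the log2 scale in the Tet2KO-labelled pair. Among 11 receptors 1 was past 2-fold in each pair, Pdgfra, lower by 5.81-fold and 2.18-fold, while its other probe set had log2 ratios of -0.47 and 0.00.

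Genes transcribed downstream of ERK, mostly of the immediate early class, were read at the RNA level, and ERK activity itself was not measured. Of 14 measured, 2 were higher and 0 lower in WT, with a median log2 ratio of 0.35, and 8 were higher and 0 lower in the Tet2KO-labelled pair, with a median of 1.34. Among all measured genes, 2.06% were higher and 2.18% lower in WT, and 6.06% and 6.89% in the Tet2KO-labelled pair. Etv5 and Egr3, named after their values were seen, had log2 ratios of -0.30 and -0.14 in the Tet2KO-labelled pair. Myc was higher by 4.50-fold and 5.92-fold, and Fosl1 by at least 2.10-fold and at least 6.07-fold, with ratios of 0.00 and 0.83 on its other probe set. Fosl2 was higher by 1.28-fold and 6.51-fold, though its other probe set gave 0.29 on the log2 scale in the latter pair.

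The choice of sham array mattered for these genes as it did for Dusp1. Between the sham arrays 3 of 13 were 2-fold or more lower with the Tet2KO label and 0 higher, beside 0.846% and 0.186% of all measured genes. The 3 were Egr1, Fos and Junb, of which Fos and Junb are named after their values were seen. Egr1 had log2 signals of 11.45 in WT sham, 10.85 in WT IR, 8.51 in Tet2KO-labelled sham and 10.60 in Tet2KO-labelled IR, so the Tet2KO-labelled sham array alone was low. Fos had 9.53, 8.86, 7.95 and 8.39 and Junb 8.04, 7.52, 6.79 and 8.69 in the same order. With the sham arrays exchanged, the median of the downstream genes was 0.74 for WT IR and 0.72 for Tet2KO-labelled IR, where it had been 0.35 and 1.34. The medians of the 10 feedback genes were 0.30 and 0.58 with the arrays exchanged, against 0.30 and 0.60.

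**Figure D5:**
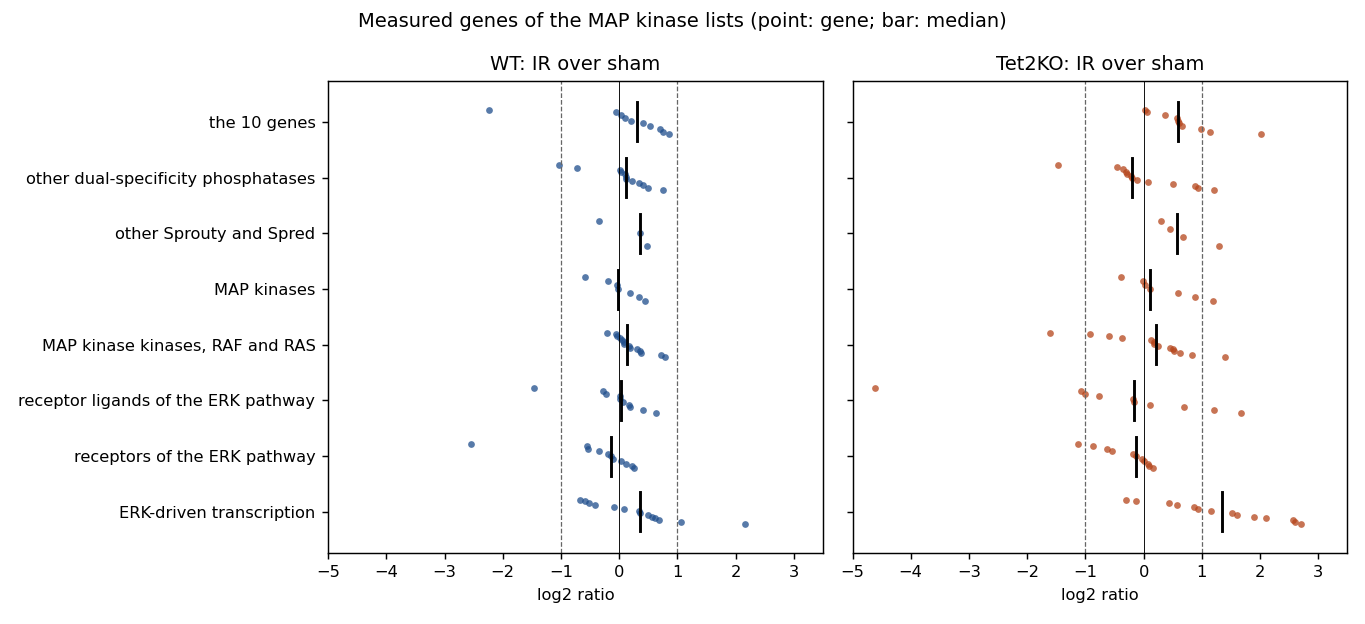
Log2 ratio of IR over sham for the measured genes of 8 lists, WT at the left and the Tet2KO-labelled pair at the right; points are genes, black bars are medians and dashed lines mark 2-fold. The median of the downstream genes is 0.35 in WT and 1.34 in the Tet2KO-labelled pair, and that of the 10 feedback genes is 0.30 and 0.60.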

How the data were processed

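Kidney RNA pooled from 3 mice per group was measured on 4 arrays. The authors deposited 1 table of log2 signals with 45037 probe sets; its log2 scale was inferred from the range, 2.51 to 14.97. MAS5 is named, per the submitters' processing notes, without version, scaling target or filter, so the scaling is unknown. Probe sets with exactly 1 symbol in the platform annotation, 34945 of them, were used, 932 with several and 9160 unlisted were left out. The brightest probe set represented a gene, with _x_at probe sets only where there was no other. Signals under the 40th percentile, a log2 signal of 5.72, were set to it, and a gene was measured in a comparison if it reached it in 1 or more of the arrays compared. A ratio with its lower side at the floor is a bound, written at least N-fold. With 1 array per group no test was made, and precision is limited by the 4 arrays. All members were named; of each pathway list, up to 4 genes past 2-fold in either pair were named. The members and lists were chosen with earlier results of these data known. Ratios were computed in Python 3.11.15 with pandas 2.3.3 and checked on simulated data. Alternatives were other floors, a pseudocount, other scalings, other probe set rules, the other sham array, a 1.5-fold threshold and detection in every array.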

Additional observations from a re-analysis of the deposited data

Results flagged for a closer look

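Dusp1 stood out because its IR response went opposite ways in the 2 genotype labels, -2.23 in WT and 0.59 in the Tet2KO-labelled pair, each beyond the probe set SD, a difference of 2.82 on the log2 scale. Equally, the genotype difference was -1.07 after sham and 1.75 after IR, which is the same 2.82. With 1 array per group the difference was not tested, and it rests on 1 probe set.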

How the results depend on the processing

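Of 400 member ratios recomputed under other settings, 391 moved by less than the probe set SD, 9 by more, and 0 of those past 2-fold turned sign. Many of these could not move. A lower floor or none leaves a gene over the floor unchanged, and 5 genes have no other probe set to read. At a threshold of 1.5-fold the WT count of IR over sham was 4, with 3 higher and 1 lower in place of 1 lower, and the Tet2KO-labelled count was 6 in place of 2. With plain _at probe sets only, the latter was 1, because Dusp14 has no such probe set. With a floor at the 50th percentile the Dusp10 ratio in the Tet2KO-labelled pair was 0.02 in place of 0.60. With the other sham array as control Dusp1 was -1.16 in place of -2.23 in WT and -0.48 in place of 0.59 in the Tet2KO-labelled IR array, and the count of members past 2-fold was 1 and 2, as before. No scaling moved the median ratio of all genes beyond 0.1. No paired analysis was possible because each group holds 1 array. No replicate could be left out for the same reason. Signals near the floor limit what can be said of Dusp10 and Spry4.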
